A study of Saccharomyces cerevisiae with 15 samples.

Results

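SWR1 loss was followed across 3 genetic backgrounds of budding yeast (Saccharomyces cerevisiae) with 9 of the 15 RNA sequencing libraries of a study of 11 genotypes. Chosen by genotype were the 3 libraries without SWR1, namely swr1 deletion, swr1 xrn1 double deletion and swr1 upf1 double deletion, with 1 library each. They were set against 6 libraries that carry SWR1, namely the wild type (libraries 1 and 3), the xrn1 deletion (1 and 2) and the upf1 deletion (1 and 2). All 9 carry HTZ1 and are haploids of the BY4741/2 background that need histidine, leucine and uracil, and all RNA was depleted of ribosomal RNA. Nothing in the labels says that libraries of 1 genotype came from separate cultures or clones, so the p-values reflect how far these libraries scatter, and that scatter may be technical.

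SWR1 is the ATPase of a chromatin remodelling complex that exchanges histone H2A for the variant H2A.Z, the product of HTZ1, in nucleosomes beside promoters. In yeast, H2A.Z is known for keeping silent chromatin from spreading at chromosome ends and for the readiness of inducible genes to be switched on. XRN1 encodes the cytoplasmic exonuclease that degrades decapped RNA, and UPF1 (listed as NAM7) encodes the helicase of nonsense-mediated decay, so both deletions retain RNA that is otherwise degraded.

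SWR1 itself lay at 0.0658, 0.0972 and 0 RPKM (read counts divided by the length of the gene and the size of the library) in swr1, swr1 xrn1 and swr1 upf1, where 3 reads would be worth 0.0922 RPKM in the last, against 35.7 and 23.0 RPKM in the wild type, 45.7 and 56.4 in xrn1 and 33.2 and 27.0 in upf1. The labels and the deleted gene thus go together in all 9 libraries. HTZ1 stood at 109, 113 and 118 RPKM in the swr1 libraries, against 114 and 104 in the wild type, 137 and 113 in xrn1 and 99.6 and 110 in upf1 (log2 change 0.01 ± 0.13 (SE), adjusted p = 0.973 by limma). Of 13 other genes of the SWR1 complex, 0 were called, with 1 lower at an unadjusted p under 0.05 and 0 called by limma voom on recovered reads. The genes beside the deletion, RQC1 (log2 -0.07 ± 0.14) and MSN5 (0.18 ± 0.21), were not called.

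Library features moved with the deletion. Reading frames within the ribosomal DNA (rDNA) took 16.9%, 12.1% and 14.5% of the summed RPKM in swr1, swr1 xrn1 and swr1 upf1, against 0.0187 to 2.49% in the 6 libraries with SWR1, so rDNA content and SWR1 loss cannot be told apart. The alpha-factor gene MF(ALPHA)1 stood at 2226, 2942 and 1968 RPKM in the swr1 libraries and at 2262 in wild type 1, but at 0.895 to 4.72 in the other 5. Of the 7 MATa-specific genes, 7 were lower, and of 5 MATalpha-specific genes, 2 were higher. In the xrn1 and upf1 backgrounds mating type and SWR1 loss cannot be told apart, whereas wild type 1 shares its mating type with swr1. MET17, a methionine gene that differs between strains of this background, was at 0.302 RPKM in swr1 xrn1, 0 in swr1 upf1 and 0.141 in xrn1 1, and at 131 to 260 in the other 6. The strain marker LYS2 was at 78.7 RPKM in xrn1 1 and at 0.0118 to 0.298 in the others. Implied totals ran from 7160194 reads in swr1 upf1 to 52087585 in swr1 xrn1. Mating-type genes, rDNA reading frames, strain markers and the deleted genes were set apart; they stay in the fit, and the counts below leave them out unless given over all 6495 genes tested.

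**Figure D1:**
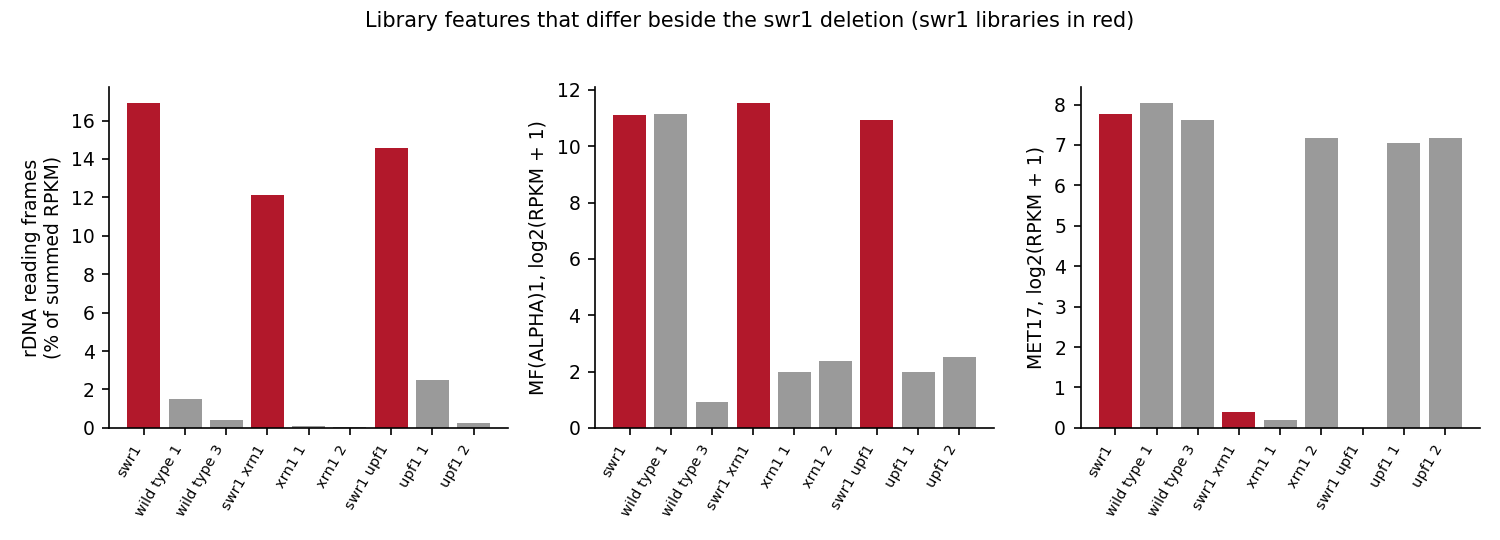
Each bar is 1 library: the share of summed RPKM in rDNA reading frames (left, %), MF(ALPHA)1 (middle) and MET17 (right), both as log2(RPKM + 1). The 3 swr1 libraries, in red, hold 12.1 to 16.9% rDNA, and MF(ALPHA)1 is high in them and in wild type 1.

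Loss of SWR1 went mainly with lower RNA levels of weakly expressed genes. With background as a term in limma (3 libraries against 6; genes with a Benjamini-Hochberg adjusted p below 0.05 are called), 229 of 6495 genes were lower (3.53%) and 31 higher (0.477%), and without the genes set apart 220 of 6463 were lower (3.40%) and 22 higher (0.340%). The median change of the 220 was log2 -1.10, with a range of -3.66 to -0.57, beside a median of -0.08 over all 6463 genes. These are whole cultures, so less RNA per cell and fewer cells that express a gene cannot be told apart. The RPKM were used as deposited, and the balance of falls and rises depends on that scale. With the libraries rescaled to the same median log ratio, 208 genes were lower and 42 higher. At an unadjusted p under 0.05 in limma, 944 of 1183 genes were lower as deposited and 796 of 1435 after rescaling. By background the median of the 220 was -1.003 in the wild type, -1.25 in xrn1 and -0.97 in upf1. The swr1 library lay below both libraries of its background in all 3 backgrounds for 219 of the 220, and for 18.3% of all genes tested; as the 220 were called from these libraries, nothing is read from that position. The same holds where the groups of a gene named below are said not to overlap, and the share of all genes with such groups was not counted. Of the 1616 genes with the lowest mean RPKM in the libraries with SWR1 (up to 26.7), 151 were lower (9.34%), against 6 of the 1616 with the highest (from 85.7; 0.371%). The part of level in the counts of gene lists below was not tested.

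The number of lower genes depended on single libraries. It was 73 without swr1, 38 without swr1 xrn1, 72 without swr1 upf1, 127 without xrn1 1, 96 without xrn1 2 and 133 without upf1 2. All 220 stayed below 0 in each of those fits. With the rDNA share as a further term 0 genes were called and 180 had an unadjusted p under 0.05, and with the MF(ALPHA)1 level as a term 0 were called and 1354 had one. Of the 220, 192 kept a negative change in the fit with the rDNA share and 220 in the fit with MF(ALPHA)1. An unadjusted p under 0.05 was left for 32 of the 220 in the fit with the rDNA share and for 207 in the fit with MF(ALPHA)1. The 220 were called from these same libraries, so nothing is read from their counts in these fits. All genes moved down as well: the median over the 6463 was log2 -0.36 with the rDNA share and -0.30 with MF(ALPHA)1, against -0.08 without a further term. Of the 1354 genes with an unadjusted p under 0.05 in the MF(ALPHA)1 fit, 1325 were lower.

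Wild type 1 has the same mating type as swr1 but was part of the fit that called the 220 genes, so its values describe them and test nothing. Set beside it alone, swr1 was lower for 219 of the 220 genes, with a median difference of log2 -1.19. Against wild type 3 it was lower for all 220, with a median of -0.83. Over all 6463 genes, swr1 was below wild type 1 for 81.8% (median -0.27) and below wild type 3 for 45.4% (median 0.04), so wild type 1 sat above swr1 for most genes, called or not. The exception among the 220 was RDT1, a short gene between HML and MAT on chromosome III. RDT1 was listed at 0 in all 3 swr1 libraries and in wild type 1, where 3 reads would be worth 0.662 to 4.82 RPKM, against 7.68 RPKM in wild type 3, 41.4 and 9.63 in xrn1 and 43.2 and 22.2 in upf1, which is the pattern of the mating-type genes. YNL146C-A, near the pheromone gene MFA2, had 5.47 RPKM in swr1 and 5.48 in wild type 1, against 8.38 in wild type 3.

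**Figure D2:**
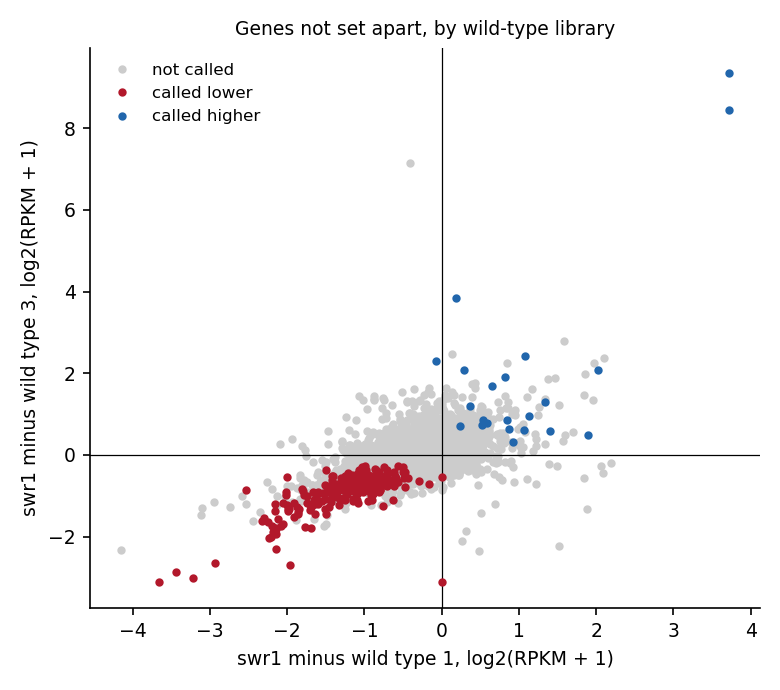
Each point is 1 gene, by the difference in log2(RPKM + 1) between swr1 and wild type 1 (x) and between swr1 and wild type 3 (y). The genes called lower (red) lie in the lower left with medians of -1.19 and -0.83, except RDT1 and YNL146C-A at or near 0 on x, and those called higher (blue) lie mostly in the upper right.

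Genes for the uptake and oxidation of sugar alcohols were among the largest falls, beside RDT1 and YDR541C. HXT15, a hexitol transporter gene (chromosome IV, 11657 to 13360, R64 build, which is sacCer3), had 0.601, 2.85 and 3.44 RPKM in swr1, swr1 xrn1 and swr1 upf1, against 5.76 and 4.39 in the wild type, 29.4 and 34.8 in xrn1 and 32.9 and 36.3 in upf1. Every swr1 library was below all 6 libraries with SWR1, and HXT15 was highest in the xrn1 and upf1 libraries with SWR1. Its log2 change was -2.67 ± 0.23 (adjusted p = 0.00119 by limma). The values rest on 24, 253 and 42 reads in the swr1 libraries and on 147 to 1335 in the others.

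Beside HXT15 lies SOR2, which encodes sorbitol dehydrogenase. SOR2 had 0.199, 1.79 and 0.520 RPKM in swr1, swr1 xrn1 and swr1 upf1, against 4.29 and 3.55 in the wild type, 14.1 and 15.01 in xrn1 and 13.3 and 11.1 in upf1 (log2 -2.54 ± 0.23, adjusted p = 0.00119). Here too the groups did not overlap. HXT16 and SOR1, on the right arm of chromosome X, changed by -2.67 and -2.53, but HXT15 and HXT16 differ at 2 of 1704 bases and SOR1 and SOR2 at 1 of 1074, so their reads cannot be assigned to 1 copy. Of 8 genes listed for hexitol and hexose uptake, 5 were lower and 0 higher, with a median of -1.84, beside 3.40% lower and 0.340% higher over all genes. The other called member was HXT17 (-1.14), whereas the transporter gene HXT13 (-0.46 ± 0.26), the mannitol dehydrogenase gene MAN2 (-0.86 ± 0.26) and its copy DSF1 (-0.82 ± 0.26) were not called.

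Duplicated vitamin genes moved with them. SNZ3 and SNO3 on chromosome VI and SNZ2 and SNO2 on chromosome XIV encode enzymes of pyridoxal phosphate synthesis and lie next to the cyanamide hydratase genes DDI3 and DDI2. SNZ3 had 1.48, 1.73 and 8.10 RPKM in swr1, swr1 xrn1 and swr1 upf1, against 10.4 and 8.91 in the wild type, 9.66 and 12.3 in xrn1 and 24.1 and 23.2 in upf1 (log2 -1.89 ± 0.19, adjusted p = 0.00179). All 3 swr1 libraries were below every library with SWR1. SNZ2, with 99.3% identical bases, changed by -1.82.

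The copies inside chromosome XIII were not called. SNZ1 had 10.1, 50.9 and 21.9 RPKM in swr1, swr1 xrn1 and swr1 upf1, against 16.8 and 8.83 in the wild type, 38.5 and 50.4 in xrn1 and 34.0 and 59.7 in upf1 (log2 -0.35 ± 0.28), and its groups overlapped. SNO1 stood at -0.17 ± 0.19. Of 22 genes of pyridoxine and thiamine metabolism, 7 were lower and 0 higher, with a median of -0.61, beside 3.40% lower and 0.340% higher over all genes. The lower ones were SNZ2, SNZ3, SNO2, SNO3, the thiamine synthesis genes THI11 (-1.83) and THI4 (-1.10), and the putative carboxylate permease gene THI73 (-0.87).

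The share of lower genes was larger near chromosome ends. Within 20 kb of an end 44 of 218 genes were lower and 0 higher, with a median of log2 -0.42. Copies that are 98.7 to 99.9% identical count as separate genes here although their reads cannot be fully assigned. Among the 44 these are HXT15 and HXT16, SOR1 and SOR2, MPH2 and MPH3, SNZ2 and SNZ3, SNO2 and SNO3, and DDI2 and DDI3. By distance, 17 of 101 genes within 10 kb were lower (16.8%), 27 of 117 at 10 to 20 kb (23.1%), 18 of 137 at 20 to 30 kb (13.1%), 26 of 306 at 30 to 50 kb (8.50%) and 115 of 5192 beyond 50 kb (2.21%). The 44 became 27 without swr1, 18 without swr1 xrn1, 27 without swr1 upf1 and 28 without xrn1 2. The median level over the 9 libraries was 15.9 RPKM within 20 kb of an end, beside 45.1 over all genes, and the part of level in this count was not tested.

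**Figure D3:**
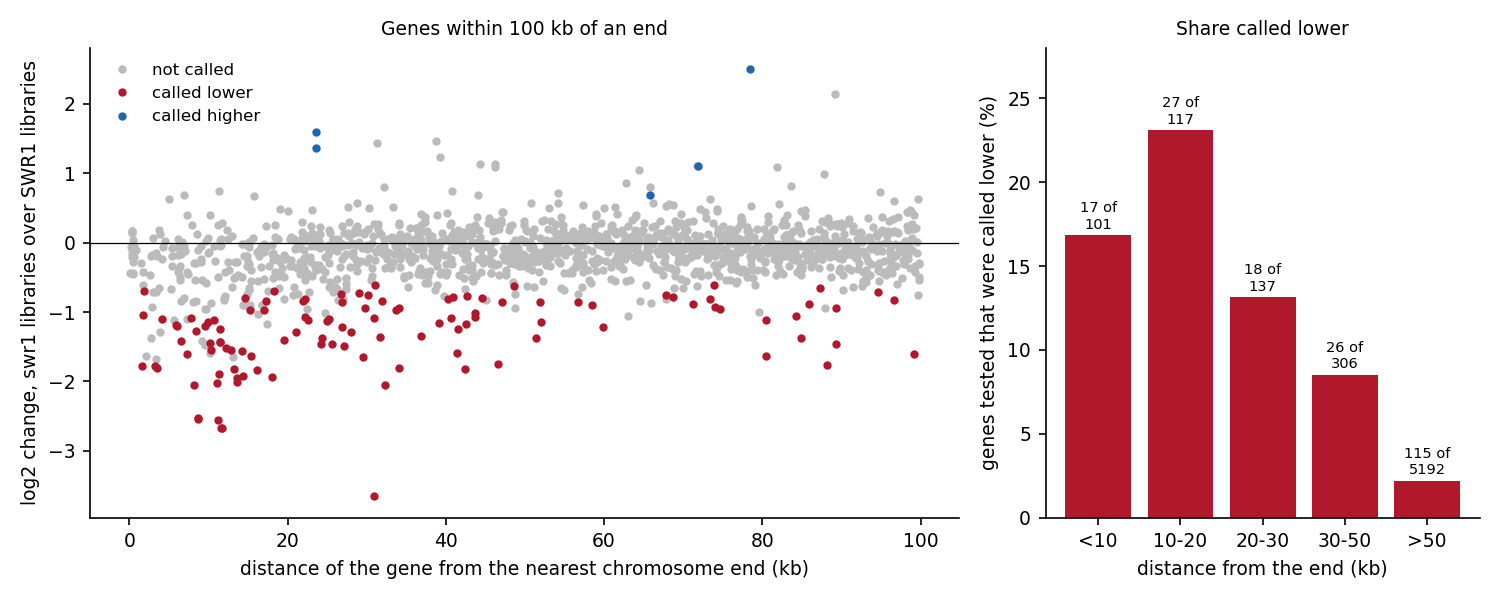
Left, the log2 change (swr1 libraries over libraries with SWR1) of each gene within 100 kb of a chromosome end against its distance from that end in kb; right, the share of genes called lower by distance. The share is 23.1% at 10 to 20 kb and 2.21% beyond 50 kb.

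The arms differed in how many lower genes they held. Of 32 chromosome ends, 20 had at least 1 lower gene within 20 kb, 7 had at least 3 and 12 had none. The right end of chromosome III had 6 lower of 8 tested. GIT1 there, the permease gene for glycerophosphoinositol, had 0.329, 1.16 and 2.78 RPKM in swr1, swr1 xrn1 and swr1 upf1, against 2.44 and 1.49 in the wild type, 13.6 and 14.7 in xrn1 and 12.0 and 13.7 in upf1. Each swr1 library was below both libraries of its background (log2 -1.94 ± 0.29, adjusted p = 0.00973). Its neighbours EMA35 (-1.92) and YCR101C (-1.96) were also lower. EMA35 overlaps YCR099C by 29 bases, so a few reads there may count for both.

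Lower genes also stood in rows. In 10 places at least 3 neighbouring genes were all lower. Neighbours were sought among tested genes with a position, without those set apart. The row on chromosome III therefore spans HMRA2, which was not called, and HMRA1, which was lower (-4.62). On chromosome IX the row VID28, SNL1 and YIL014C-A spans the MATa-specific gene BAR1, which was also lower (-4.62). The number of rows was not set against an expectation. COS7, MPH2, SOR2 and HXT15 formed such a row at the left end of chromosome IV, and THI11, HXT16, SOR1 and MPH3 at the right end of chromosome X. From the end inwards both hold an MPH, a SOR and an HXT gene, in a duplicated block. These copies are 98.7 to 99.9% identical, so their reads cannot be fully assigned to 1 of the rows. The same holds for DDI3, SNO3 and SNZ3 on chromosome VI and DDI2, SNO2 and SNZ2 on chromosome XIV, which are rows too. At the right end of chromosome IV the row was FDC1, a ferulic acid decarboxylase gene, IRC4 and YDR541C. YDR541C, a putative reductase gene, had 0.619, 6.49 and 9.99 RPKM in swr1, swr1 xrn1 and swr1 upf1, against 19.4 and 12.9 in the wild type, 66.7 and 50.7 in xrn1 and 27.3 and 25.5 in upf1 (log2 -2.56 ± 0.33, adjusted p = 0.00492), with no overlap. Some rows lay further in: KTD1, DFP2, PRM9 and MST28, members of the DUP240 family of membrane proteins, began 41407 bases from the right end of chromosome I.

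Single genes elsewhere fell as far. ATG34, the receptor gene for selective transport of alpha-mannosidase to the vacuole, had 1.65, 2.84 and 3.16 RPKM in swr1, swr1 xrn1 and swr1 upf1, against 7.43 and 5.07 in the wild type, 25.5 and 17.5 in xrn1 and 13.4 and 14.3 in upf1 (log2 -1.93 ± 0.24, adjusted p = 0.00399). It lies 165713 bases from the left end of chromosome XV, and its groups did not overlap. Near ends, YER188W (-2.05), VEL1 (-2.02), DFP4 (-2.01) and the transporter gene GEX2, which exchanges glutathione for protons (-1.81), were lower, and inside chromosome VII MCO32 (-2.08).

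The allantoin gene cluster of chromosome IX, whose products let cells use purine breakdown products as nitrogen, was among the rows. DAL1 (allantoinase) had 0.309, 0.999 and 1.11 RPKM in swr1, swr1 xrn1 and swr1 upf1, against 4.44 and 1.93 in the wild type, 9.68 and 10.2 in xrn1 and 9.05 and 7.30 in upf1. All swr1 libraries were below all others (log2 -2.06 ± 0.26, adjusted p = 0.00427), with 10, 72 and 11 reads against 92 to 357. DAL4 (allantoin permease, -1.64), DAL3 (ureidoglycolate lyase, -1.47) and DAL2 (allantoicase, -1.29) made it 4 of 9 tested genes of this pathway, with 0 higher. Over all genes 3.40% were lower and 0.340% higher.

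**Figure D4:**
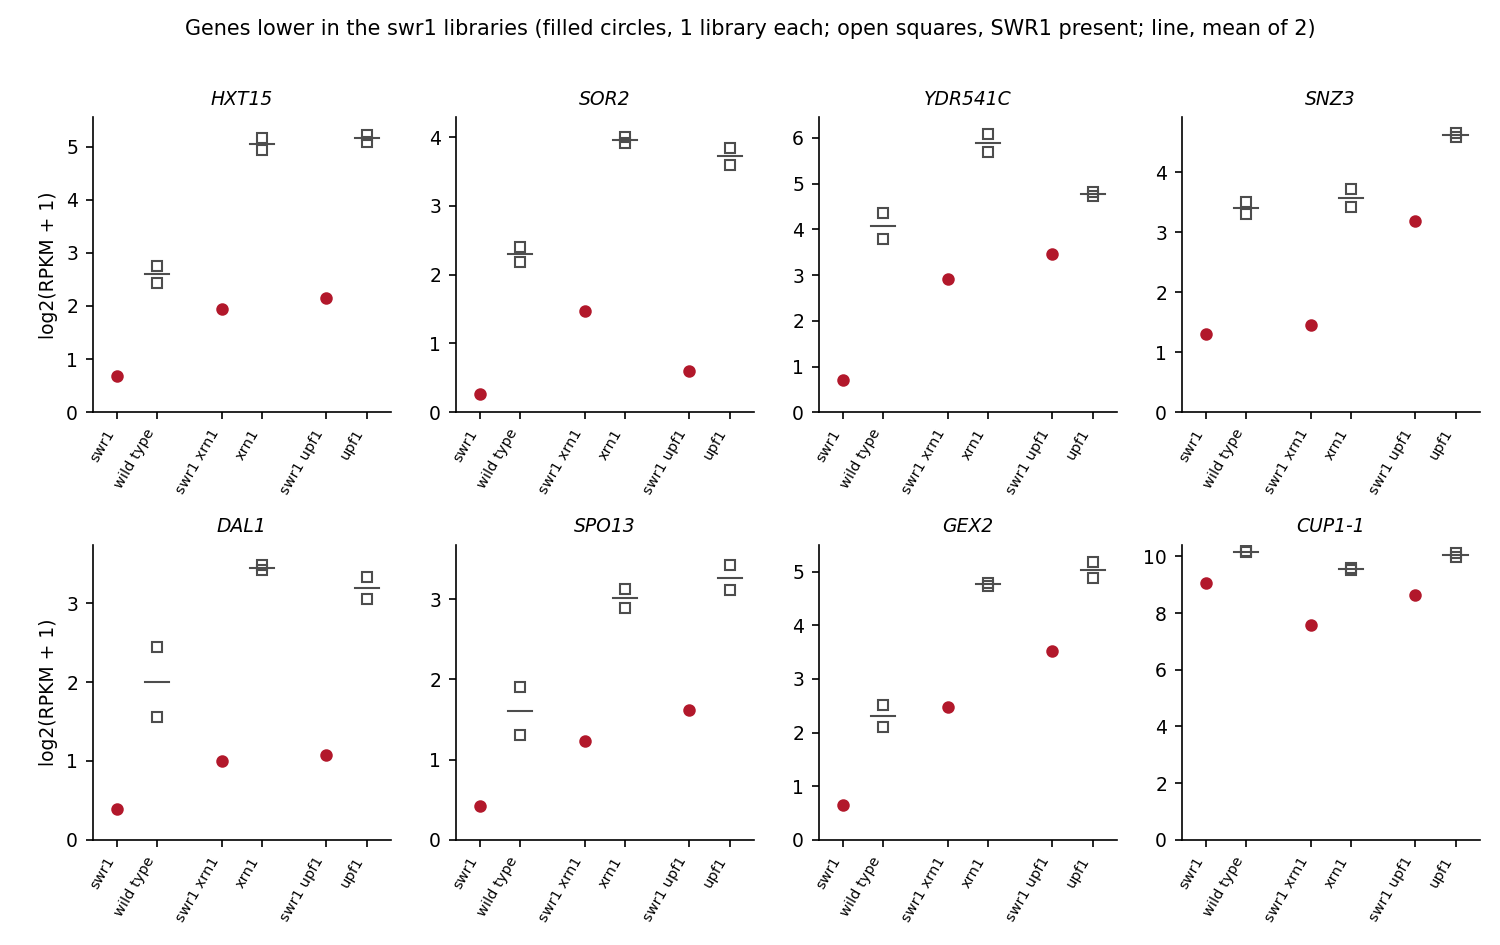
Log2(RPKM + 1) of 8 genes in each library, with swr1 libraries as filled red circles to the left of the libraries of their background (open squares; the line is the mean of 2). Each red circle lies below both squares beside it, and HXT15, SOR2 and DAL1 are low in all 3 swr1 libraries.

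Other inducible carbon genes were lower in part. PCK1, the gluconeogenic enzyme phosphoenolpyruvate carboxykinase, had 0.854, 3.43 and 1.44 RPKM in swr1, swr1 xrn1 and swr1 upf1, against 4.08 and 3.50 in the wild type, 14.5 and 21.0 in xrn1 and 9.76 and 7.71 in upf1 (log2 -1.80 ± 0.21, adjusted p = 0.00377). All 3 swr1 libraries were below every other library. With JEN1 (lactate permease, -1.07) and CAT2 (carnitine acetyltransferase, -0.84), 3 of 17 genes of gluconeogenesis and the glyoxylate cycle were lower and 0 higher. Beside the list counts of this paragraph stand 3.40% lower and 0.340% higher over all genes. Of 14 maltose, melibiose and isomaltase genes 5 were lower, the isomaltase genes IMA1 (-0.85), IMA2 (-1.11) and IMA5 (-1.38) and the maltose permease genes MPH2 (-1.20) and MPH3 (-1.19). Of 8 genes of the galactose pathway, GAL2 (permease, -1.83) and GAL7 (uridyltransferase, -1.66) were lower, whereas GAL1 (-0.07 ± 0.28) and GAL10 (-0.02 ± 0.18) were not called.

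The metallothionein genes CUP1-1 and CUP1-2, which lie in a tandem array on chromosome VIII and protect cells from copper, were, with the reading frames YHR052W-A (-1.49) and YHR054W-A (-1.56) of the same array, the most strongly expressed of the lower genes. CUP1-1 had 535, 190 and 399 RPKM in swr1, swr1 xrn1 and swr1 upf1, against 1153 and 1127 in the wild type, 733 and 759 in xrn1 and 1016 and 1098 in upf1. The groups did not overlap (log2 -1.49 ± 0.16, adjusted p = 0.00229). CUP1-2 changed by -1.57, and since the copies are identical in sequence, their reads cannot be assigned to 1 copy. The number of copies in the array was not measured, so copy number and RNA level per copy cannot be told apart. Within the htz1 genotype CUP1-1 had 717 RPKM in htz1 1 and 346 in htz1 2.

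Meiosis and sporulation genes, which are shut off in growing haploids, fell in part: 8 of 45 were lower and 0 higher, with a median of log2 -0.43. Over all 6463 genes 3.40% were lower and 0.340% higher. The listed genes had a median level of 9.08 RPKM, and 9.34% of the 1616 genes with the lowest level were lower. SSP1, needed at the edge of the forming spore membrane, had 0, 0.224 and 0.326 RPKM in swr1, swr1 xrn1 and swr1 upf1, against 2.76 and 1.86 in the wild type, 3.63 and 3.88 in xrn1 and 3.06 and 2.98 in upf1 (log2 -1.76 ± 0.23, adjusted p = 0.00482). These are 0, 20 and 4 reads without SWR1 against 71 to 166 with it, and 3 reads in swr1 would be worth 0.0747 RPKM. SPO13, which keeps sister kinetochores together in the first meiotic division, had 0.341, 1.36 and 2.07 RPKM in swr1, swr1 xrn1 and swr1 upf1, against 2.74 and 1.47 in the wild type, 7.75 and 6.42 in xrn1 and 9.75 and 7.66 in upf1. Each swr1 library was below both of its background (log2 -1.53 ± 0.23, adjusted p = 0.00973). The others were REC8 (meiotic cohesin, -1.82), SPS2 (spore wall, -1.74), MEI4 (meiotic DNA breaks, -1.09), SPO1 (spindle pole body duplication, -1.06), SMK1 (spore wall kinase, -0.95) and HOP1 (chromosome axis, -0.73). The count of 8 became 4 without swr1, 1 without swr1 xrn1, 2 without swr1 upf1, and 5 without xrn1 1, xrn1 2 or upf1 1.

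Of these 8 genes, 5 carry the core GGCGGC of URS1, the element bound by the repressor of early meiotic genes, within 250 bases before the start codon on either strand. Of 3 motifs searched it was the one found before most of the 8. The middle sporulation core CACAAA was found before 4 of the 8 and 16 of the 37 meiosis genes tested and not lower, and the stress element CCCCT before 0 and 6, beside 16.5% and 18.8% of all genes, all on either strand. The URS1 windows are shown so that the letters around the core can be read. They were read from the R64 genome of RefSeq, 5′ to 3′ on the strand of the gene, with the core or its reverse complement GCCGCC in capitals.
MEI4 (chrV:239840-239895, minus strand): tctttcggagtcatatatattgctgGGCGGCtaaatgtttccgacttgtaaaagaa
SPO13 (chrVIII:131927-131982, plus strand): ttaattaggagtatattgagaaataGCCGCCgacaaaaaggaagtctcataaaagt
HOP1 (chrIX:226406-226461, plus strand): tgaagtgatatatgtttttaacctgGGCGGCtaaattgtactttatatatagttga
REC8 (chrXVI:571532-571587, minus strand): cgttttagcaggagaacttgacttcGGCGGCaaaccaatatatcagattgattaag
SMK1 (chrXVI:666104-666159, plus strand): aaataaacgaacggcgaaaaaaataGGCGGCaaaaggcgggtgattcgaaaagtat
The core was found before 250 of 6001 genes in all (4.17%), before 15 of 203 lower genes (7.39%) and before 11 of the 37 meiosis genes that were tested and not lower (29.7%). A match is a description of the letters and not a shown binding site.

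Fewer genes were higher, and several of them follow the library features. The swr1 library lay above both libraries of its background in all 3 backgrounds for 21 of the 22, and for 4.46% of all genes tested, which the calling of the 22 from these libraries largely sets. The count of 22 became 5 without swr1, 3 without swr1 xrn1, 3 without swr1 upf1, 14 without wild type 3, 8 without xrn1 2 and 11 without upf1 2. YLR162W (log2 6.13 ± 1.11) and RRT15 (5.92 ± 1.12), reading frames beside the rDNA array on chromosome XII, were the largest. YLR162W had 3166, 1975 and 3033 RPKM in swr1, swr1 xrn1 and swr1 upf1, against 239 and 8.04 in the wild type, 18.8 and 2.21 in xrn1 and 435 and 50.5 in upf1, in the order of rDNA share within each background. YLR041W had 164, 152 and 182 RPKM in the swr1 libraries and 145 in wild type 1, against 10.6 in wild type 3 and 8.14 to 21.2 in xrn1 and upf1, as mating-type genes do. AGA1, the anchor of the cell surface agglutinin, had 128, 242 and 270 RPKM in swr1, swr1 xrn1 and swr1 upf1, against 104 and 29.3 in the wild type, 15.1 and 31.8 in xrn1 and 37.8 and 32.8 in upf1 (log2 2.50 ± 0.47, adjusted p = 0.0217).

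Small nucleolar RNAs, which guide the modification of ribosomal RNA, gave 4 of the 22 rises. SNR77 had 67.0, 27.1 and 138 RPKM in swr1, swr1 xrn1 and swr1 upf1, against 25.8 and 26.4 in the wild type, 23.4 and 13.4 in xrn1 and 31.1 and 26.7 in upf1 (log2 1.38 ± 0.28, adjusted p = 0.027). Each swr1 library was above both of its background, although swr1 xrn1 lay near the wild type. SNR39B (2.36), SNR60 (1.85) and SNR76 (1.23, beside SNR77 on chromosome XIII) were the others. Of 76 small nucleolar RNA genes tested, 4 were higher and 0 lower, beside 0.340% higher and 3.40% lower over all genes. Their median was log2 0.41, which by background was 0.28 in the wild type, 0.02 in xrn1 and 0.84 in upf1. SNR77 also stood at 118 and 71.7 RPKM in the htz1 and htz1 upf1 libraries rich in rDNA and at 24.1 and 23.2 in the htz1 and htz1 xrn1 libraries poor in it. The part of rDNA content in these rises was not tested.

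**Figure D5:**
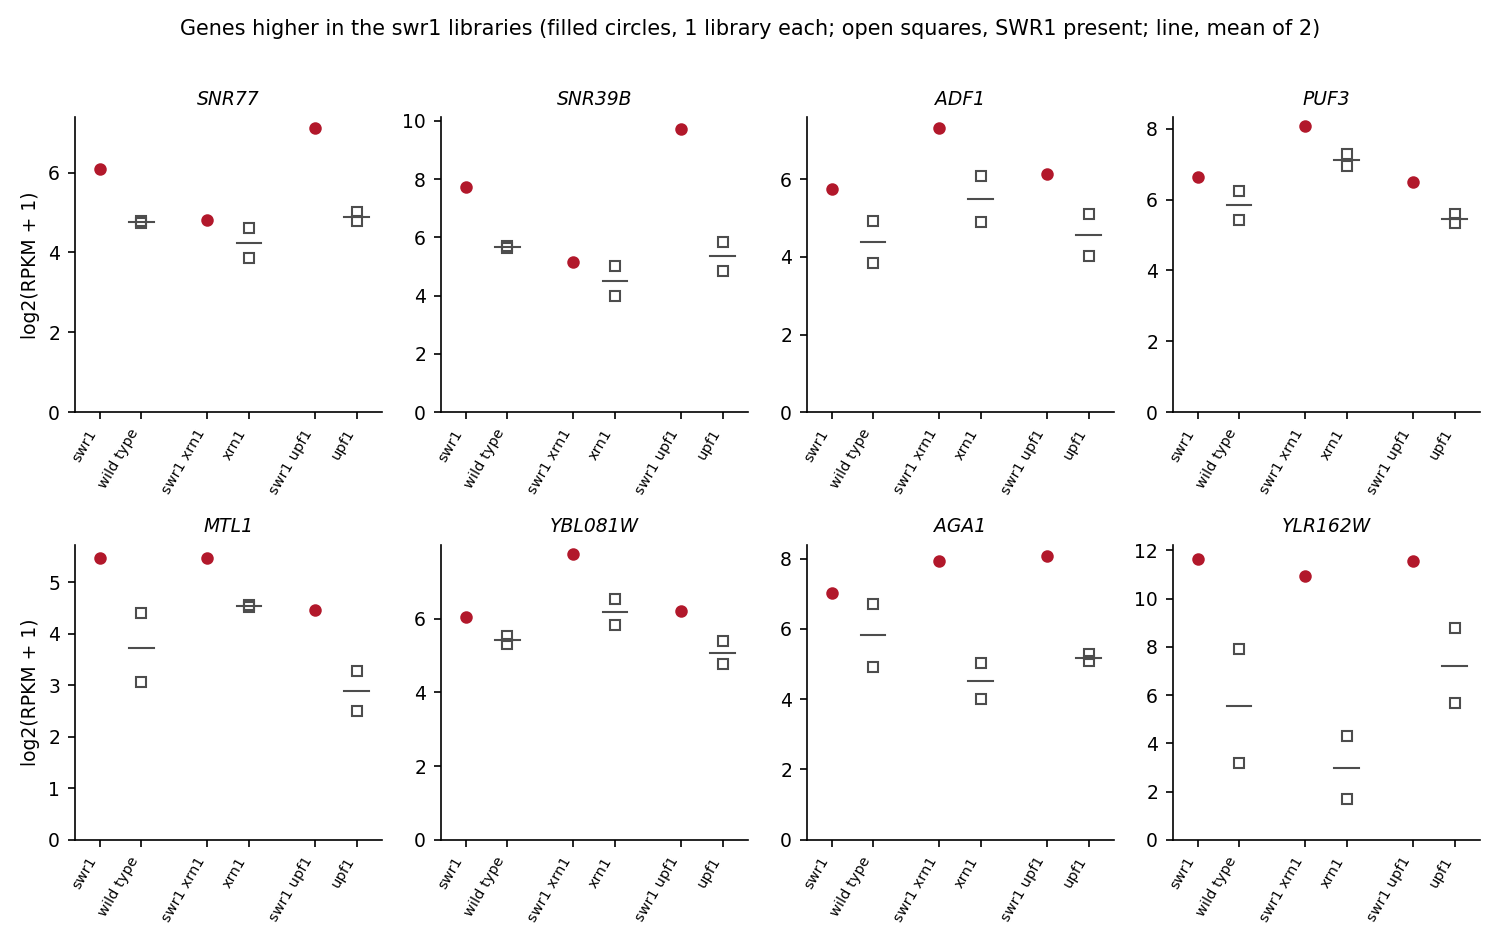
Log2(RPKM + 1) of 8 genes in each library, with swr1 libraries as filled red circles to the left of the libraries of their background (open squares; the line is the mean of 2). SNR77 and SNR39B stand highest in swr1 upf1, and YLR162W is high in all 3 swr1 libraries.

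Of the other higher genes, PUF3, which encodes a protein that binds mRNAs of nuclear genes for mitochondrial proteins, had 97.9, 270 and 89.0 RPKM in swr1, swr1 xrn1 and swr1 upf1, against 75.5 and 42.0 in the wild type, 123 and 154 in xrn1 and 47.0 and 39.3 in upf1 (log2 0.93 ± 0.19, adjusted p = 0.0281). Each swr1 library was above both libraries of its background. PUF3 also had 112 RPKM in htz1 1, which is rich in rDNA, and 65.8 in htz1 2, which is not, and its change was 0.23 once the rDNA share was added as a term. The G1 cyclin gene CLN3 (0.68), the wall protein genes CCW14 (0.73) and SRL1 (0.89), the wall stress sensor gene MTL1 (1.42) and PHD1, a transcription factor gene of filamentous growth (0.75), were also higher, as were YBL081W (1.11), MMO1 (1.10) and YMR013W-A (0.98). ADF1 (1.59) and FYV5 (1.36) overlap on opposite strands by 342 bases, and the strand setting of the counting is not given in the sources used here, so they cannot be told apart. In the libraries without HTZ1 the values went with rDNA content only in part. ADF1 had 56.8 RPKM in htz1 1 and 13.5 in htz1 2, and MTL1 had 38.5 and 11.0. In htz1 upf1, rich in rDNA, ADF1 and MTL1 had 74.8 and 33.9 RPKM, but in htz1 xrn1, poor in it, 52.1 and 48.2. The part of rDNA content in these values was not tested. In the fit that adds the rDNA share, the changes of MTL1, ADF1 and FYV5 were -2.75, -0.31 and -0.27. That share was high in all 3 swr1 libraries, so the fit can hardly separate it from SWR1 loss. The median standard error over all genes was 1.20 in that fit, against 0.169 without the term. Neither the size nor the sign of these changes, or of the 0.23 of PUF3, is therefore read as an effect of rDNA content.

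Chromatin and RNA-processing genes were counted in the same way, beside 3.40% lower and 0.340% higher over all genes. The lists are short, so their counts are not read as differing from that share. Of 11 INO80, 9 NuA4, 10 histone, 14 histone chaperone, 17 silencing factor and 83 spliceosome genes, 0 were called by limma. At an unadjusted p under 0.05, 2 INO80 genes were higher, 1 NuA4 gene was lower and 1 higher, 4 silencing genes were lower, and 8 spliceosome genes were lower and 1 higher, and limma voom called 1 silencing gene lower. Of 268 genes with introns 6 were lower (2.24%) and 0 higher, with a median of log2 -0.13. Among 132 ribosomal protein genes 0 were called, with 3 lower at an unadjusted p under 0.05 and 0 by limma voom. Among 111 ribosome biogenesis genes 0 were called, with 11 higher at an unadjusted p under 0.05, 0 by limma voom, and a median of 0.31.

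Some lower genes lie beside mating-type-specific genes. Of 14 tested neighbours of the 7 MATa-specific genes, 6 were lower, beside 3.40% of all genes, whereas 0 of 10 neighbours of the MATalpha-specific genes were called by limma. Only entries with a position in the annotation were counted as neighbours. YLR041W, numbered next to the MATalpha-specific gene AFB1 (YLR040C), has no position and was left out, although it was called higher (3.03). GYP8, beside the pheromone receptor gene STE2, encodes a GTPase-activating protein and had 5.72, 13.4 and 14.2 RPKM in swr1, swr1 xrn1 and swr1 upf1, against 10.4 and 14.9 in the wild type, 62.2 and 59.3 in xrn1 and 58.8 and 46.7 in upf1 (log2 -1.64 ± 0.21, adjusted p = 0.00492). The drop was large in xrn1 and upf1, and wild type 1 lay below wild type 3. The other 5 were CMI8 (-2.06) beside the pheromone gene MFA1, YNL146W (-1.66) beside MFA2, SNL1 (-0.99) and YIL014C-A (-1.89) beside the protease gene BAR1, and CBT1 (-0.85) beside the exporter gene STE6. For CMI8 wild type 1 also lay below wild type 3, whereas for YNL146W, SNL1, YIL014C-A and CBT1 it lay above. The part of mating type in these values was not tested.

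Whether the change differed between backgrounds was tested in the same libraries. For xrn1 minus wild type 0 genes were called by limma and 118 had an unadjusted p under 0.05, and for upf1 minus wild type 0 and 98. AAD3, an aryl-alcohol dehydrogenase gene at the right end of chromosome III, had the smallest p for upf1: it had 0.978, 11.2 and 40.7 RPKM in swr1, swr1 xrn1 and swr1 upf1, against 17.4 and 15.005 in the wild type, 37.3 and 56.7 in xrn1 and 49.5 and 50.1 in upf1 (difference of changes log2 2.83 ± 0.49, adjusted p = 0.701). HSP30, a plasma membrane stress protein gene, had one of the smallest for xrn1, with 147, 24.8 and 108 RPKM in swr1, swr1 xrn1 and swr1 upf1, against 72.7 and 91.0 in the wild type, 103 and 80.4 in xrn1 and 116 and 51.8 in upf1 (-2.69 ± 0.62, adjusted p = 1.00). This test rests on 1 swr1 library per background.

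Set directly against 4 libraries without HTZ1 (htz1 1 and 2, htz1 xrn1 and htz1 upf1), the 3 swr1 libraries had 14 genes lower (0.216%) and 12 higher (0.185%), and 5 and 4 without the genes set apart. All 4 htz1 libraries are of the other mating type, with MF(ALPHA)1 at 0.492 to 3.59 RPKM, so mating type and the missing gene cannot be told apart here. The 5 lower genes were RDT1, DAN1, GYP8, YNL146C-A and the iron mannoprotein gene FIT2 (-1.42), and the 4 higher were YKL177W, YLR041W, YCL065W and SPL2. YKL177W, YLR041W, YCL065W and RDT1 have the mating-type pattern, and GYP8 and YNL146C-A lie near STE2 and MFA2. Of the 220 genes above, 207 had a lower mean in the swr1 libraries than in the htz1 libraries, with a median difference of log2 -0.54, beside 63.0% and -0.07 over all 6463 genes; the 220 were chosen for low values in these same swr1 libraries. The 3 of them called were RDT1, GYP8 and YNL146C-A. HXT15 had 0.601, 2.85 and 3.44 RPKM in swr1, swr1 xrn1 and swr1 upf1, against 3.69 and 0.384 in htz1, 77.1 in htz1 xrn1 and 1.81 in htz1 upf1. Its level was thus low in htz1 upf1 and high in htz1 xrn1. The htz1 libraries differed, with htz1 1 above all 3 swr1 libraries and htz1 2 below them. The anaerobic wall protein gene DAN1 was lower in the swr1 libraries, with 0.0952, 2.98 and 0.934 RPKM in swr1, swr1 xrn1 and swr1 upf1, against 8.83 and 13.5 in htz1, 99.9 in htz1 xrn1 and 12.7 in htz1 upf1 (log2 -3.62 ± 0.36, adjusted p = 0.0124). SPL2, a regulator of phosphate uptake, was higher, with 91.0, 99.0 and 19.7 RPKM in swr1, swr1 xrn1 and swr1 upf1, against 3.43 and 2.07 in htz1, 14.2 in htz1 xrn1 and 1.99 in htz1 upf1 (3.51 ± 0.41, adjusted p = 0.0264). DAN1 and SPL2 were not called against the libraries with SWR1 (-0.05 ± 0.50 and -0.01 ± 0.40).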

How the data were processed

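The authors deposited RPKM values per gene. The submitters' processing notes name STAR 2.4.0, CASAVA and sacCer3; which program counted reads, with which annotation and strand setting, is not given in the sources used here. RPKM times gene length gave whole reads within 0.1 read for 99.8 to 100% of low values, which gave the implied totals. Of 6662 entries, 3 had no distinct name (0.0203 to 0.129% of the summed RPKM in the 9 libraries) and were left out, as was 1 column that matched no sample.

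The test was trended empirical Bayes in limma 3.58.1 (R 4.3.3) on log2(RPKM + 1), which understates changes of low genes. Genes averaging at least 1 RPKM over the 15 libraries entered, 6495 in all; background was a term, which left 5 residual degrees of freedom. Values after ± are standard errors, and p-values were adjusted over all 6495 genes by Benjamini-Hochberg. The interaction and htz1 fits have 3 residual degrees of freedom, and a genotype with 1 library takes its spread from the others. The procedure was tested on simulated data, where it recovered 26.2% of 1.5-fold, 65.9% of 2-fold and 92.9% of 4-fold changes and called 0.102% of unchanged genes. The simulated noise was independent between genes, so it held no library features such as rDNA content or mating type and says nothing about them.

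Members, lists and tests were chosen with earlier results of these data known. Named were the 15 largest rises and falls on 1 side in all backgrounds, at most 4 called genes per list, in the other comparisons up to 5 called genes each way or the 3 with the smallest p, and further genes after their values were seen. Positions and sequences come from the RefSeq R64 annotation, to which 5986 names matched.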

Additional observations from a re-analysis of the deposited data

How the results depend on the processing

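No paired analysis was possible because each swr1 genotype has 1 library without a replicate number. Lower genes numbered 158 to 323 with other pseudocounts, no filter, rescaling, no trend, all 15 libraries or limma voom, against 220 as reported. A mean of at least 10 RPKM left 94 calls (82 lower, 12 higher), with 19 lower within 20 kb of an end and 1 meiosis gene; a pseudocount of 5 left 5 meiosis genes; rescaling gave 42 higher. With the rDNA share or MF(ALPHA)1 as a term 0 were called in every count, and with MET17 37 (35 lower, 2 higher; 15 near ends, 1 meiosis gene). Leaving out 1 library gave 41 to 267 calls, 38 to 253 lower, 3 to 26 higher, 18 to 44 lower near ends and 1 to 9 meiosis genes lower. Of 75 named genes 27 stayed called whichever library was left out. With the rDNA term 13 changed sign (YER188W 0.13, YLR162W -1.44, RRT15 -5.47, SNR39B -0.78, ADF1 -0.31, MTL1 -2.75, FYV5 -0.27, AAD3 1.88, DFP2 1.44, MPH3 0.74, MPH2 0.75, AUS1 2.43, PDC5 0.078); the median standard error was 1.20 with that term, against 0.169 without it. The cause was not tested. Interaction counts stayed at 0 and swr1 against htz1 at 22 to 31 calls under the alternatives run for them.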
